A study of Rattus norvegicus with 23 samples.

Results

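The cytochrome P450, UDP-glucuronosyltransferase and sulfotransferase genes described here are the members of these families on a rat kidney array whose symbol starts with Cyp, Ugt or Sult and a family number. Some genes of these families, among them those of vitamin D and sterol synthesis, were left out by name (Cyp1a1, Cyp2c11, Ugt2b7, the Cyp4a genes, Cyp2c23, Cyp2j4, Cyp27b1, Cyp24a1 and Cyp51). This gave 71 of 81 genes with such a symbol, out of 14217 genes on the array that had a symbol of their own. For each gene the brightest probe set, by its mean over the 23 arrays, was used, and 8 members have more than 1 probe set. The rule reads symbols alone, but the rule and the genes left out by name were chosen with earlier results of these data known.

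Gene expression was measured in whole kidneys of 23 male rats, 1 array per labelled sample, at 4 months of age. SBH/y rats belong to a Sabra line prone to salt-sensitive hypertension and SBN/y rats to the resistant line bred beside it, and each strain gave a sham-operated group with 2 kidneys (5 SBN/y and 6 SBH/y rats) and a group 3 months after right uninephrectomy, with 1 kidney (6 rats in each strain). All were males fed ordinary chow without restriction. The series names proteinuria as its subject, so the design asks how the strains differ with 2 kidneys and with 1, how each strain differs after the loss of a kidney, and whether that response differs between the strains.

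Cytochrome P450 enzymes are heme proteins that insert oxygen into drugs, fatty acids, steroids and other lipids, and most draw electrons from the reductase encoded by Por. UDP-glucuronosyltransferases attach glucuronic acid, and in a few cases another sugar, and cytosolic sulfotransferases attach sulfate, which makes their substrates more soluble for excretion. In the kidney these enzymes are known above all from the proximal tubule, and rat kidney is known to carry a narrower set of them than liver.

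Values are log2 signals per probe set. The arrays had medians between 4.64 and 4.69, and arrays of 1 group correlated between 0.990 and 0.997. Replicate 3 of SBH/y with 2 kidneys and replicate 2 of SBH/y with 1 kidney were also left out as a pair. This pair was chosen with earlier results of these data known, and no measure of its distance from the groups is given here. Every call of a member passed with and without this pair. RNA quality was read from the GAPDH controls, as the 3' signal less the 5' signal. This gap averaged 0.35 ± 0.03 (SD, n = 5) and 0.45 ± 0.04 (SD, n = 6) in the SBN/y groups, and 0.46 ± 0.06 and 0.53 ± 0.11 (SD, n = 6 each) in the SBH/y groups, with 2 kidneys first. Every call of a member also passed with this gap as a covariate, except 1 given at Cyp4b1. The proximal tubule markers Slc34a1, Lrp2, Cubn, Slc5a2, Slc22a6, Slc22a8 and Slc13a3 were bright, with a mean over the list between 10.47 and 10.67 on every array. Because whole kidneys were used, fewer cells of a type and less RNA per cell cannot be told apart, and the number of arrays limits the precision of each value.

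Many of the members gave little signal in these kidneys. A gene was called dim in a group when its group mean lay under 4.66, the median of all probe sets over all arrays, and at background when it lay at or under 3.13, the highest value of the Xist probe sets, which are silent in males. In all 4 groups, 29 of 71 members were at background (40.8%, against 10.1% of all genes with a symbol), a further 20 lay under the median, and 22 reached the median in at least 1 group (31.0%, against 68.0% of all genes).

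The members at background included many genes known from liver and some known from steroid-producing glands. Of the 28 members of the Cyp1, Cyp2 and Cyp3 families, which are known for drug metabolism, 14 were at background, including Cyp2a1, Cyp2a2, Cyp2b12, Cyp2c6v1, Cyp2c7, Cyp2c12, Cyp2c13, Cyp2c22 and all 4 Cyp3a members (Cyp3a2, Cyp3a9, Cyp3a18 and Cyp3a23-3a1). The Cyp families other than Cyp1 to Cyp4 had 14 members, among them genes of steroids, bile acids and retinoids. Of these 14, 5 were at background, namely Cyp7a1, the rate-limiting enzyme of bile acid synthesis, Cyp7b1, Cyp11b1, Cyp17a1 and Cyp26a1. Another 4 reached the median, Cyp20a1, Cyp26b1, Cyp27a1 and Cyp46a1. Cyp11a1, which makes pregnenolone, was dim at 3.93 ± 0.19 (SD, n = 5) in the sham-operated SBN/y group, and Cyp21a1, a steroid hydroxylase gene of the adrenal cortex, at 4.42 ± 0.13 (SD, n = 5). Of 7 Ugt2 members, 4 were at background and 1, Ugt2b35, reached the median. No Ugt1 gene is a member, because the 2 probe sets of that locus match 8 Ugt1a symbols each. These 2 probe sets were bright, with means of 11.26 and 10.21 over all arrays, against 9.86 for Ugt2b35. The shares at background given here thus leave them out.

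The liver markers Alb, Apoa1, Apoh, Ttr, Serpina1 and Fgb had a mean between 3.78 and 4.13 on every array, with Apoa1 at background. Apoh lay above the median in all groups and was lower in SBH/y (-0.67 ± 0.12 and -0.76 ± 0.12, SE, with 2 kidneys and with 1). Fgb, which was dim, was higher in SBH/y with 1 kidney (0.54 ± 0.11). Its other probe sets, at background, differed by -0.15 and -0.03 in this comparison, without a call. The adrenal markers Star, Nr5a1 and Hsd3b1 were dim and Akr1b7 was at background, while Mrap, whose protein assists the ACTH receptor, lay at 6.91 ± 0.12 (SD, n = 5) in SBN/y against 4.88 ± 0.28 (SD, n = 6) in SBH/y with 2 kidneys. With 2 kidneys, the 5 measured adrenal markers averaged 4.03 to 4.14 per array in SBN/y against 3.53 to 3.75 in SBH/y. With 1 kidney they averaged 3.90 to 4.11 against 3.52 to 3.72. Mrap was the 1 adrenal marker past the test (-2.03 ± 0.12 and -2.23 ± 0.11, SE). With 2 kidneys, Star differed by -0.04, Nr5a1 by 0.02, Akr1b7 by -0.03 and Hsd3b1 by 0.06, and with 1 kidney Hsd3b1 differed by 0.26 ± 0.09 (adjusted p = 0.0573, limma).

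**Figure D1:**
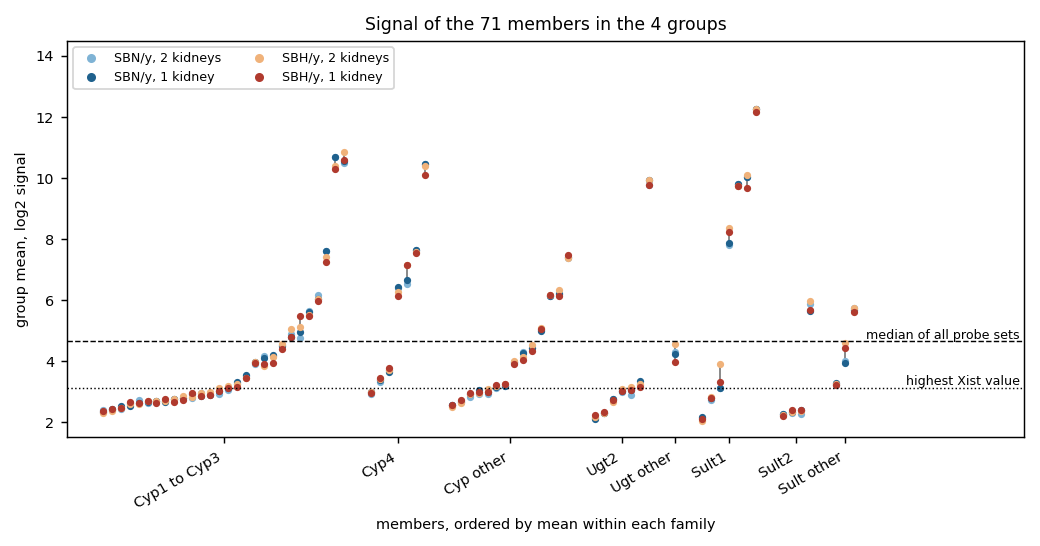
Group means of the log2 signal (vertical axis) for the 71 members, grouped by family and ordered by mean within each family (horizontal axis), with a point per group of rats. The dashed line is the median of all probe sets (4.66) and the dotted line the highest Xist value (3.13); 29 members lie at or under the dotted line in all 4 groups.

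The members with the brightest probe sets were Sult1c2a, Cyp2e1, Cyp2d2, Cyp4f1, Sult1c2, Ugt2b35, Sult1b1, Sult1a1, Cyp4f6 and Cyp2d4. Probe sets differ in how well they hybridise, so these signals do not rank the amounts of the mRNAs. Sult1b1, which sulfates phenols and thyroid hormones, varied little between the groups. Its means in the SBN/y groups were 9.80 ± 0.06 (SD, n = 5) and 9.79 ± 0.04 (SD, n = 6). The SBH/y means were 9.75 ± 0.02 and 9.75 ± 0.11 (SD, n = 6 each). Its largest difference in the 4 comparisons was -0.05 ± 0.05 (SE). Cyp4f6, a fatty acid hydroxylase gene, likewise stayed within 0.08 log2 in each comparison (group means 7.55 to 7.65).

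In SBH/y kidneys, 4 members fell after uninephrectomy and 1 rose. Sult1c3 and Sult1c2, a pair of related sulfotransferase genes, fell by 0.60 ± 0.08 (SE) and 0.41 ± 0.08 log2, Ugt8, the ceramide galactosyltransferase gene, fell by 0.58 ± 0.10 and Cyp4f1, a fatty acid omega-hydroxylase gene, by 0.27 ± 0.05. Cyp1b1, a P450 of many tissues outside the liver that oxidises estradiol and aromatic hydrocarbons, rose by 0.37 ± 0.08. These 5 of 71 members (7.04%) stand beside 7.16% of all 14217 genes, so the share called was that of the array as a whole. By direction, 1 member rose against 4.76% of all genes and 4 fell against 2.40%. The median difference of the members was -0.04 and that of all genes 0.00, on the log2 scale, and 13 of 71 members had an unadjusted p under 0.05.

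Sult1c2 was read in SBN/y with 2 kidneys at 9.88, 9.95, 10.01, 10.07 and 10.27. The lowest, median and highest values were 9.89, 10.03 and 10.23 in SBN/y with 1 kidney, 9.93, 10.14 and 10.20 in SBH/y with 2 kidneys, and 9.52, 9.67 and 10.002 in SBH/y with 1 kidney. The arrays of SBH/y with 1 kidney were the low ones, and the highest of them overlapped the other groups. The fall in SBH/y had an adjusted p = 0.00125 (limma), against 0.01 ± 0.08 (SE) in SBN/y. The difference between these responses was -0.42 ± 0.11 (adjusted p = 0.132), and without replicate 2 of SBH/y with 1 kidney it was -0.49 (adjusted p = 0.0342).

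Sult1c3 had its highest signal in SBH/y with 2 kidneys. It was read at 3.04, 3.08, 3.12, 3.18 and 3.24 in SBN/y with 2 kidneys, and its lowest, median and highest values in SBN/y with 1 kidney were 2.96, 3.13 and 3.27. In SBH/y they were 3.67, 3.86 and 4.21 with 2 kidneys and 3.24, 3.27 and 3.42 with 1. The 6 arrays of SBH/y with 2 kidneys thus lay above all others, while both SBN/y groups sat at the highest Xist value and SBH/y with 1 kidney close above it. The fall in SBH/y had an adjusted p = 1.53e-05 and the difference between the responses of the strains was -0.59 ± 0.11 (adjusted p = 0.0158, limma). Sult1c3 was the 1 member past this interaction test (1.41% of members, against 0.408% of all genes, or 0.0774% in the lower direction), and 7 members had an unadjusted p under 0.05. Because 3 of the groups were this dim, the sizes of these differences are uncertain.

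Sult1c2a, another sulfotransferase gene of the same subfamily, had a smaller difference in the same direction. Its 6 arrays in SBH/y with 1 kidney ran from 12.10 to 12.19, below the 12.25 to 12.36 of SBH/y with 2 kidneys, a difference of -0.12 ± 0.05 (SE) that did not pass over all probe sets (adjusted p = 0.191) and passed with a trended and robust variance (adjusted p = 0.0344). Sult1c2a, Sult1c2 and Sult1c3 are close paralogs on chromosome 9, so probes may read more than 1 of them.

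Ugt8, whose enzyme makes galactosylceramide, the lipid from which kidney sulfatides are built, was dim in all groups. It was read at 3.97, 4.14, 4.34, 4.47 and 4.53 in the 2-kidney SBN/y rats, with 4.00, 4.17 and 4.62 as lowest, median and highest in SBN/y with 1 kidney. In SBH/y these values were 4.26, 4.61 and 4.67 with 2 kidneys and 3.70, 3.97 and 4.16 with 1, so that the SBH/y groups did not overlap (adjusted p = 0.00064, limma). The second probe set of Ugt8 was at background in all groups and differed by -0.01 (adjusted p = 0.958). In SBN/y the difference was -0.06 ± 0.11 (SE), and the difference between the responses, -0.52 ± 0.15, did not pass (adjusted p = 0.185).

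Cyp4f1 was bright in all groups. It was read at 10.38, 10.44, 10.48, 10.48 and 10.55 in SBN/y with 2 kidneys, and the lowest, median and highest values were 10.37, 10.47 and 10.55 in SBN/y with 1 kidney. They were 10.22, 10.42 and 10.48 in SBH/y with 2 kidneys and 9.96, 10.13 and 10.20 with 1. All 6 arrays of SBH/y with 1 kidney lay below all others, a fall with an adjusted p = 0.00211 (limma). The response in SBN/y was -0.02 ± 0.06 (SE), and the difference between the responses, -0.26 ± 0.08, did not pass (adjusted p = 0.233). Of the other Cyp4 members, Cyp4b1 differed by -0.13 ± 0.08, Cyp4f6 by -0.02 ± 0.06 and Cyp4v3 by 0.01 ± 0.07 after uninephrectomy in SBH/y.

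Cyp1b1 was read at 4.64, 4.69, 4.76, 4.80 and 4.88 in SBN/y with 2 kidneys, close to the median of all probe sets. The lowest, median and highest values were 4.78, 4.93 and 5.22 in SBN/y with 1 kidney, 4.89, 5.11 and 5.29 in SBH/y with 2 kidneys, and 5.25, 5.42 and 5.77 in SBH/y with 1. The rise in SBH/y had an adjusted p = 0.00554 (limma), with groups that overlapped at their edges. In SBN/y the difference was 0.21 ± 0.09 (SE, adjusted p = 0.536), and the responses differed by 0.16 ± 0.12 (adjusted p = 0.811).

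Some markers of other cell types also changed. All 5 myeloid markers (Cd68, Csf1r, Lyz2, Ptprc and Laptm5) rose in SBH/y after uninephrectomy, as Cyp1b1 did. Their mean per array ran from 6.85 to 6.93 in SBN/y with 2 kidneys, from 6.95 to 7.34 in SBN/y with 1, from 7.03 to 7.19 in SBH/y with 2 and from 7.48 to 7.95 in SBH/y with 1, and none was at background. Their part in the rise of Cyp1b1 was not tested. Of the 7 proximal tubule markers, 0 passed the limma test after uninephrectomy in SBH/y, and their mean per array lay between 10.52 and 10.64 with 2 kidneys and between 10.52 and 10.67 with 1. A second probe set of Slc34a1 fell by 0.33 (adjusted p = 0.0028), while the brighter one differed by -0.05. The podocyte gene Nphs1 fell by 0.42 ± 0.09 (SE). Slc4a1, listed as a red cell marker, fell by 0.43 ± 0.06, the 1 of 3 measured markers of its list called. Plin1, a fat marker, fell by 0.31 ± 0.09 (adjusted p = 0.0476, limma), the 1 of 6 called. Its second probe set, at background, differed by -0.09 (adjusted p = 0.516). Over all genes, 2.40% were called lower. The liver gene Fgb rose by 0.61 ± 0.11, while its other probe sets differed by -0.10 and -0.01. The part of these genes' tissues in the changes of the 5 members was not tested.

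**Figure D2:**
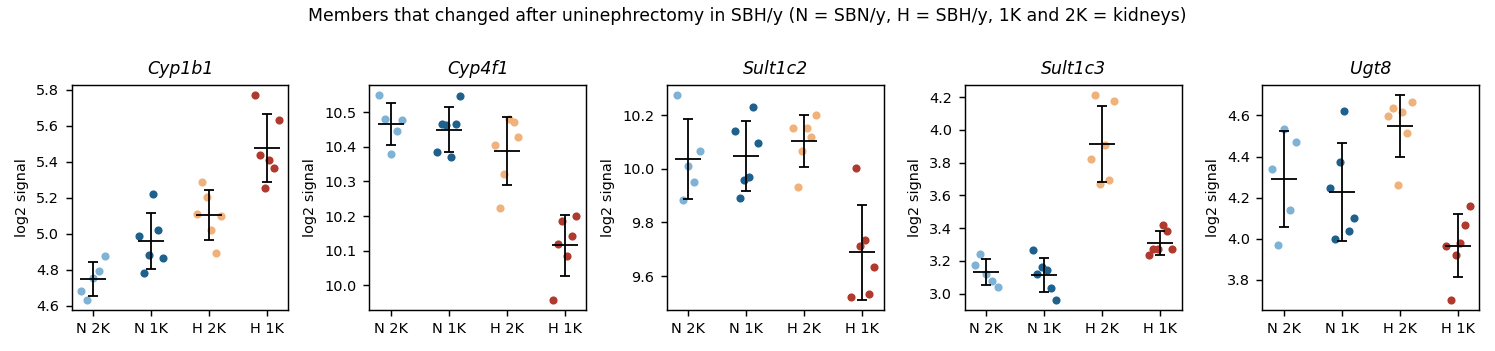
Log2 signal (vertical axis) of Cyp1b1, Cyp4f1, Sult1c2, Sult1c3 and Ugt8 on each array, by strain and kidney number (horizontal axis), with points for arrays and bars for mean and SD. The 6 arrays of SBH/y with 1 kidney lie lowest for Cyp4f1, and the 6 of SBH/y with 2 kidneys highest for Sult1c3.

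The 250 bases upstream of the annotated start are shown for these 5 members, since they are the ones that moved after uninephrectomy. The sequences are from RefSeq, build GRCr8, which is the genome of a BN rat and not of the Sabra strains, and 58 of 71 members had an entry. Each is written 5′ to 3′ on the gene's strand, with capitals for matches on either strand to GCGTG, the core of the xenobiotic response element, AGGTCA, the core bound by many nuclear receptors, GTTAAT, a core of HNF1 sites, and TATAAA, the TATA box.
Cyp1b1 (chr6:21094315-21094564, plus strand): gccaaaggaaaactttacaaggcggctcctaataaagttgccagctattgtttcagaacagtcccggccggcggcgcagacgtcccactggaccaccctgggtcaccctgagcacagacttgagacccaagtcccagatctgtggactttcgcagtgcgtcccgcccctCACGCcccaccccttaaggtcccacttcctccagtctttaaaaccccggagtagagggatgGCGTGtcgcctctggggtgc
Cyp4f1 (chr7:12672554-12672803, minus strand): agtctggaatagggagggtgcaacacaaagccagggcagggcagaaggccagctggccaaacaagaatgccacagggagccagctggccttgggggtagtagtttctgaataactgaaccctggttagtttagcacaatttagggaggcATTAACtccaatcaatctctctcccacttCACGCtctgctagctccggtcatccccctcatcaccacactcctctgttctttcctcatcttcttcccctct
Sult1c2 (chr9:7436731-7436980, plus strand): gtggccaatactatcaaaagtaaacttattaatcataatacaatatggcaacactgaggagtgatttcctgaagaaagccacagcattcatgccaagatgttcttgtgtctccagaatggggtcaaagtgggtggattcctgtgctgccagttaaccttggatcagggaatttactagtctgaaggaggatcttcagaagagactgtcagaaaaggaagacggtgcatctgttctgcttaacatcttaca
Sult1c3 (chr9:7594257-7594506, minus strand): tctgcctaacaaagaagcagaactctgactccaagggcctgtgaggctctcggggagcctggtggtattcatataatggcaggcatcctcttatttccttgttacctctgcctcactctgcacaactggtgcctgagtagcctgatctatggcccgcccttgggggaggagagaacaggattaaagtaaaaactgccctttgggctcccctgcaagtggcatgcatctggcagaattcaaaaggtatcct
Ugt8 (chr2:217007168-217007417, minus strand): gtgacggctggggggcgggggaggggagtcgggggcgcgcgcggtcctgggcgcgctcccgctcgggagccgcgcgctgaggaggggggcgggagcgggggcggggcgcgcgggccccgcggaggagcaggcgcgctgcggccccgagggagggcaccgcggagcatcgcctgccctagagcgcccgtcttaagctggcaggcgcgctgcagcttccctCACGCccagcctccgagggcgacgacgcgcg
Cyp1b1 had 2 matches to GCGTG, 81 and 20 bases before the start, Cyp4f1 had 1 at 72 bases and Ugt8 had 1 at 31 bases. Cyp4f1 also had 1 match to GTTAAT, at 101 bases. Sult1c2 and Sult1c3 had no match to these letters in this window, and no AGGTCA or TATAAA was found in any of the 5. For comparison, GCGTG was found in 25.9% of 33469 windows of this length and in 13 of the 58 member windows, AGGTCA in 14.1% and 15, GTTAAT in 6.45% and 6, and TATAAA in 12.9% and 18. None of these motifs overlapped another in the windows shown.

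In SBN/y kidneys, no member passed the test after uninephrectomy. With limma, 0 of 71 members were called, against 0.253% of all genes, and a trended and robust variance gave 0 as well. At an unadjusted p under 0.05 there were 4, Cyp1b1 (0.21 ± 0.09, SE), Sult2a6 (0.14 ± 0.06), Cyp2u1 (-0.14 ± 0.06) and the cholesterol sulfotransferase gene Sult2b1 (-0.22 ± 0.10), of which Sult2a6 was at background. The members' differences ran from -0.22 to 0.21 with a median of 0.01, and that of all genes was 0.00. In SBH/y, Sult2b1 differed by -0.29 ± 0.10 (adjusted p = 0.0888) and a second probe set by -0.20 (adjusted p = 0.307), so the same direction was read in both strains without a call. Without replicate 4 of SBH/y with 1 kidney, the brighter probe set passed in SBH/y (-0.38, adjusted p = 0.00709). Ugt2b35, the brightest glucuronosyltransferase member, differed by 0.18 ± 0.09 in SBN/y and by -0.16 ± 0.09 in SBH/y, and neither these differences nor that between them, -0.34 ± 0.12 (adjusted p = 0.39, limma), passed.

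With 2 kidneys in place, 5 members were higher and 2 lower in SBH/y than in SBN/y. Sult1c3, Cyp4v3, Sult4a1, Sult1a1 and Cyp1b1 were higher, and Cyp2d2 and Cyp2f4 were lower. The 7 calls make 9.86% of the members, against 11.0% of all genes, with 5.50% of all genes higher and 5.54% lower. The members' median difference was 0.03 and that of all genes 0.01, and 13 members had an unadjusted p under 0.05.

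Cyp4v3, a fatty acid hydroxylase gene and the rodent counterpart of the human gene altered in Bietti crystalline dystrophy, was 0.60 ± 0.08 (SE) log2 higher in SBH/y, a 1.51-fold difference (adjusted p = 2.51e-06, limma). It was read at 6.42, 6.46, 6.53, 6.61 and 6.69 in SBN/y with 2 kidneys, and its lowest, median and highest values were 6.47, 6.65 and 6.86 in SBN/y with 1. In SBH/y they were 6.94, 7.13 and 7.30 with 2 kidneys and 6.95, 7.16 and 7.34 with 1. All SBH/y arrays lay above all SBN/y arrays. With 1 kidney the strain difference was 0.50 ± 0.07 (adjusted p = 1.25e-05). The second probe set of Cyp4v3 was also higher in SBH/y, by 0.33 and 0.32 (adjusted p = 0.01695 and adjusted p = 0.00964, limma). It was at background in 3 of the 4 groups, both groups with 1 kidney among them, so these sizes are uncertain.

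Sult1a1, the phenol sulfotransferase gene, was 0.56 ± 0.11 (SE) higher in SBH/y with 2 kidneys (adjusted p = 0.000615, limma). It was read at 7.61, 7.71, 7.73, 7.87 and 8.04 in SBN/y and at 8.16, 8.33 and 8.65 (lowest, median and highest) in SBH/y, without overlap. With 1 kidney the values were 7.68, 7.88 and 7.94 in SBN/y and 7.93, 8.14 and 8.71 in SBH/y, which met at the edge, a difference of 0.37 ± 0.10 (adjusted p = 0.0126). Sult4a1, a sulfotransferase gene known from brain, was dim in all 4 groups and higher in SBH/y by 0.58 ± 0.10 with 2 kidneys and by 0.48 ± 0.10 with 1. It was read at 3.64, 3.98, 4.01, 4.09 and 4.27 in SBN/y with 2 kidneys and at 4.11, 4.65 and 4.77 in SBH/y, where 1 low array met the other group. Cyp1b1 was higher by 0.35 ± 0.09 with 2 kidneys (adjusted p = 0.00698) and by 0.52 ± 0.08 with 1 (adjusted p = 3.91e-05), without overlap in either case. The myeloid markers were also higher in SBH/y, 2 of 5 with 2 kidneys and 5 of 5 with 1, and their part in this difference was not tested.

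Cyp2d2 and Cyp2d4, drug-metabolising P450 genes of the same subfamily, were lower in SBH/y. Cyp2d2 was read at 10.62, 10.66, 10.66, 10.71 and 10.78 in SBN/y with 2 kidneys and at 10.62, 10.68 and 10.76 (lowest, median and highest) with 1. In SBH/y it lay at 10.35, 10.39 and 10.44 with 2 kidneys and 10.11, 10.31 and 10.41 with 1, so that all SBH/y arrays were below all SBN/y arrays. The differences were -0.30 ± 0.05 (SE, adjusted p = 0.000246) with 2 kidneys and -0.39 ± 0.05 (adjusted p = 1.51e-06) with 1. Cyp2d4 differed by -0.20 ± 0.07 with 2 kidneys (adjusted p = 0.0993, or -0.25 and adjusted p = 0.0229 without replicate 4 of SBH/y with 2 kidneys) and was lower by -0.34 ± 0.07 with 1 (adjusted p = 0.000835). Its second, dimmer probe set passed in both, at -0.30 and -0.67, and also fell after uninephrectomy in SBH/y by 0.43 (adjusted p = 0.00147), where the brighter one differed by -0.16 ± 0.07 (adjusted p = 0.262). Genes of the Cyp2d subfamily are close paralogs, so probes may read more than 1 of them, and Cyp2d3, which was dim, differed by 0.02 and -0.08 between the strains.

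Cyp2f4, a P450 gene known from lung for the oxidation of naphthalene, was dim and lower in SBH/y by -0.30 ± 0.08 (SE) with 2 kidneys (adjusted p = 0.00933, limma), with groups that overlapped. Cyp2e1, which oxidises ethanol and other small molecules, was read at 10.27, 10.48, 10.49, 10.55 and 10.65 in SBN/y and at 10.71, 10.85 and 10.98 in SBH/y with 2 kidneys, without overlap. Its difference of 0.36 ± 0.16 did not pass when all groups shared a spread (adjusted p = 0.212). It passed when the 2 groups were fitted alone (adjusted p = 0.00458), when replicate 4 of SBN/y with 1 kidney was left out (adjusted p = 0.0409) and with the GAPDH covariate (0.58, adjusted p = 0.0294). The retinoic acid hydroxylase gene Cyp26b1 differed by 0.05 at its brighter probe set, while a dimmer one was 0.90 ± 0.27 higher in SBH/y (adjusted p = 0.032).

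**Figure D3:**
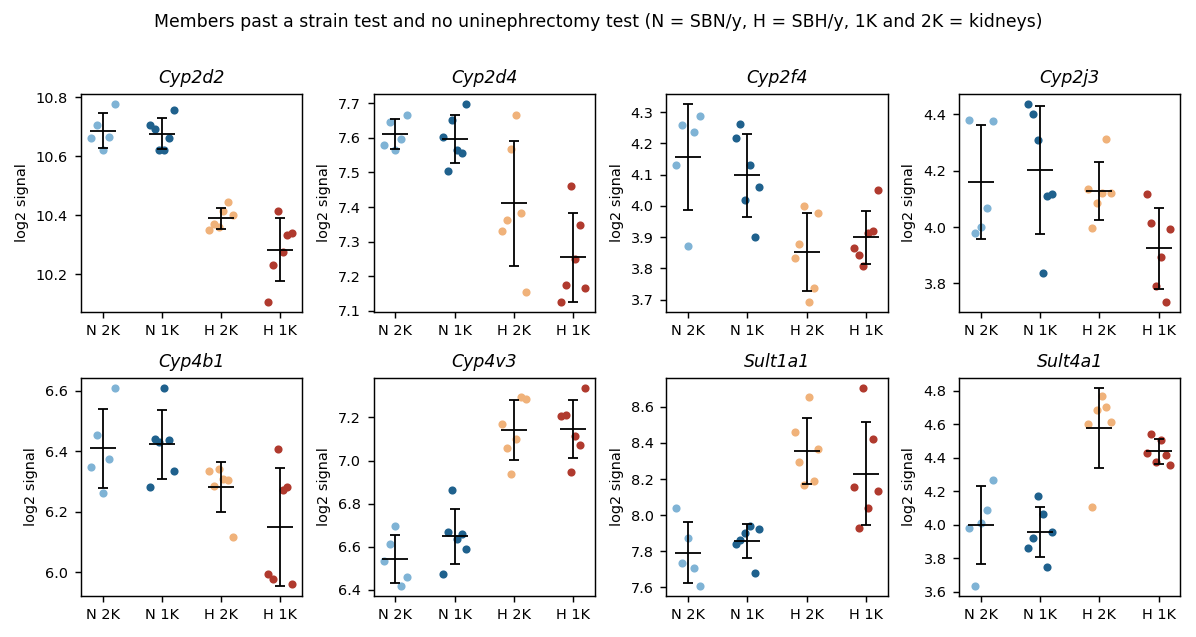
Log2 signal (vertical axis) on each array, by strain and kidney number (horizontal axis), of the 8 members past a strain test and no uninephrectomy test, with points for arrays and bars for mean and SD. All SBH/y arrays lie above all SBN/y arrays for Cyp4v3 and below them for Cyp2d2.

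With 1 kidney, 4 members were higher and 6 lower in SBH/y. Cyp1b1, Cyp4v3, Sult4a1 and Sult1a1 were again higher, and Cyp2d2 was again lower, now with Cyp2d4, Sult1c2, Cyp4f1, Cyp2j3 and Cyp4b1. The 10 calls make 14.1% of the members, against 17.7% of all genes, with 10.2% of all genes higher and 7.48% lower, and the median difference was -0.02 against 0.01 for all genes. This comparison shares its SBH/y arrays with the uninephrectomy comparison in that strain. The values of Sult1c2 (-0.36 ± 0.08, SE) and Cyp4f1 (-0.33 ± 0.05) thus rest on the same 6 arrays in both. All of these were low for Cyp4f1, while for Sult1c2 replicate 2 (10.002) lay within the range of the other groups.

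Sult1c3, higher by 0.78 ± 0.08 in SBH/y with 2 kidneys, differed by 0.19 ± 0.08 with 1 (adjusted p = 0.114). Cyp4b1, a P450 known from lung, was lower by -0.27 ± 0.08 with 1 kidney (adjusted p = 0.0144), with lowest, median and highest values of 6.28, 6.43 and 6.61 in SBN/y against 5.96, 6.13 and 6.41 in SBH/y, which overlapped. With the GAPDH measure as a covariate Cyp4b1 differed by -0.19 (adjusted p = 0.128), and this measure was 0.45 and 0.53 in the same groups. Cyp2j3, an arachidonic acid epoxygenase gene, was dim and just passed at -0.28 ± 0.09 (adjusted p = 0.0462), with overlapping groups. Leaving out single arrays ended its call in 12 of 23 fits (highest adjusted p = 0.128), and its second probe set differed by -0.19 (adjusted p = 0.103). The arrays whose removal ended it were replicate 4 of SBN/y with 2 kidneys, replicates 1, 2, 3 and 6 of SBN/y with 1, replicates 1, 4 and 6 of SBH/y with 2, and replicates 3, 4, 5 and 6 of SBH/y with 1.

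Markers of other tissues also differed between the strains, where 5.54% of all genes were lower in SBH/y with 2 kidneys and 7.48% with 1. Fat markers were lower in SBH/y for 3 of 6 genes with 2 kidneys (Ucp1, Adipoq and Fabp4) and for 2 of 6 with 1, and averaged per array 5.18 to 6.04 in SBN/y against 4.93 to 5.42 in SBH/y with 2 kidneys, and 5.20 to 5.81 against 4.99 to 5.31 with 1. Red blood cell markers were lower for 2 and 3 of 3 measured genes, with Alas2 at -0.81 ± 0.15 (SE) with 2 kidneys. Per array they averaged 8.26 to 8.57 in SBN/y against 7.78 to 8.35 in SBH/y with 2 kidneys, and 8.18 to 8.59 against 7.53 to 8.05 with 1. The principal cell gene Aqp2 was higher, by 0.40 ± 0.12 and 0.61 ± 0.11, while Scnn1g, the other collecting duct marker, differed by 0.04 ± 0.07 and -0.10 ± 0.07 and was not called. No marker of the fat, red blood cell and collecting duct lists was at background in all groups. Of the 7 proximal tubule markers, 1 was called with 2 kidneys, Cubn (0.27 ± 0.08, adjusted p = 0.02325, limma), and 0 with 1. Second, dimmer probe sets were lower in both comparisons for Slc22a8 (-1.36 and -1.51) and Slc34a1 (-0.23 and -0.41), and passed. The brighter ones differed by 0.05 and 0.01 and by 0.11 and 0.07, without a call. The part of all these markers in the strain differences of the members was not tested.

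**Figure D4:**
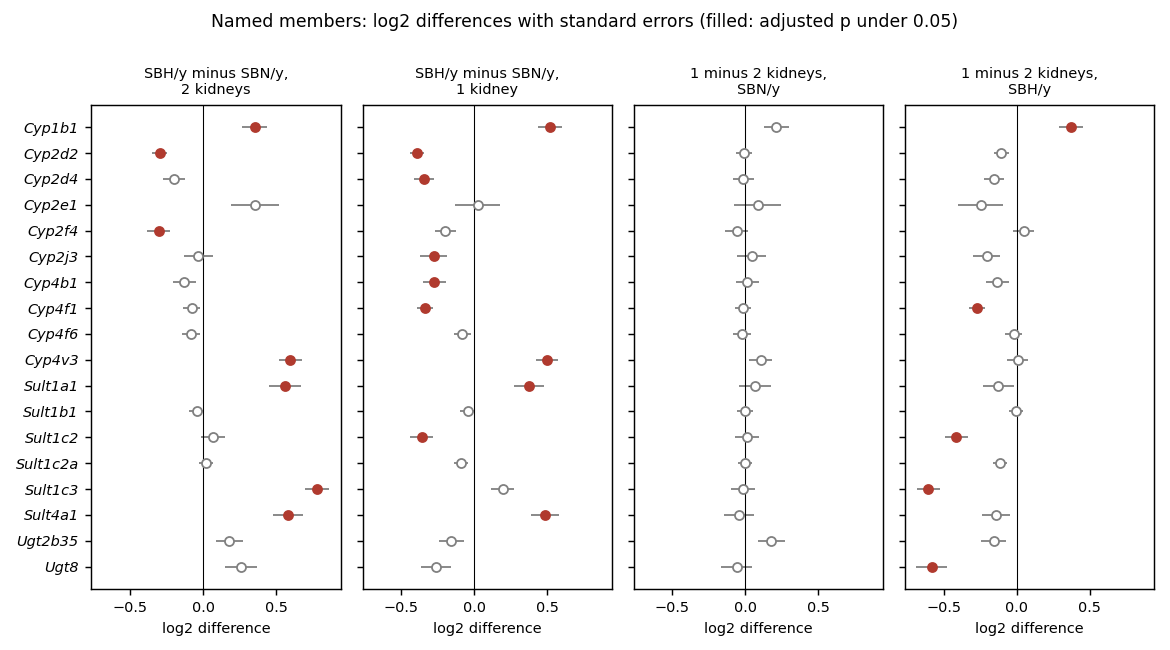
Log2 differences (horizontal axis) with standard errors for the 18 named members (vertical axis) in the 4 comparisons, filled where the adjusted p was under 0.05. No point is filled for uninephrectomy in SBN/y, and 5 are filled for SBH/y.

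Of 5 measured electron donor genes, 2 were lower in SBH/y with 2 kidneys and with 1, Por and Cyb5b, while Cyb5a, Cyb5r3 and Fdx1 passed in neither comparison. Por, which encodes the reductase that feeds microsomal P450 enzymes, lay at 8.28 ± 0.09 (SD, n = 5) in SBN/y and 7.91 ± 0.08 (SD, n = 6) in SBH/y with 2 kidneys, a difference of -0.36 ± 0.07 (SE, adjusted p = 0.000278, limma), and at -0.24 ± 0.06 with 1 kidney. A second probe set of Por gave -0.23 (adjusted p = 0.113). Cyb5b, a cytochrome b5 of the mitochondrial outer membrane, was lower by -0.57 ± 0.07 and -0.70 ± 0.06 at its brighter probe set and higher by 0.54 and 0.43 at the other (adjusted p = 4.1e-07 and adjusted p = 4.12e-06), so it has no settled direction. None of the 5 passed after uninephrectomy in either strain.

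Of 6 measured genes of cofactor supply, 1 was higher and 3 lower in SBH/y, with 2 kidneys as well as with 1. Ugp2, which makes UDP-glucose, was higher by 0.27 ± 0.05 (SE) and 0.28 ± 0.05. Ugdh, which turns it into the UDP-glucuronic acid used by the glucuronosyltransferases, was lower by -0.23 ± 0.07 and -0.43 ± 0.06. Papss1, which makes the sulfate donor of the sulfotransferases, was lower by -0.35 ± 0.07 and -0.34 ± 0.06, and Slc35b3, a carrier that brings this donor into the Golgi apparatus, by -0.20 ± 0.06 and -0.28 ± 0.05. The groups did not overlap for Ugp2, Ugdh and Papss1 in either comparison. The share of all genes without overlap was not computed, so this is not shown to be particular to these genes. Between the strains, 11.0% of all genes were called with 2 kidneys and 17.7% with 1. None of the 6 passed after uninephrectomy, and Papss2 and Slc35b2 passed in no comparison.

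Of 12 measured receptors and regulators, 2 were higher (Stat5b and Nr1i3) and 1 lower (Cebpa, -0.31 ± 0.09, SE) in SBH/y with 2 kidneys, and 1 was higher (Stat5b, 0.29 ± 0.08) and 1 lower (Ppara, -0.34 ± 0.11, adjusted p = 0.0499, dim) with 1. Nr1i3, the receptor CAR, was at background in SBN/y, which leaves the size of its difference (0.32 ± 0.09) uncertain. Ahr, the receptor through which Cyp1b1 is known to be induced, lay between 4.39 and 4.53 in the 4 groups and passed in none of the comparisons. None of the 12 passed after uninephrectomy at its brightest probe set. Both dimmer probe sets of Hnf4a fell in SBH/y, by 0.31 and 0.29 (adjusted p = 0.0184 and adjusted p = 0.0131). With 1 kidney they were also lower in SBH/y than in SBN/y, at -0.24 and -0.29 (adjusted p = 0.0489 and adjusted p = 0.00475, limma). The brightest probe set of Hnf4a differed by -0.06 between the strains with 1 kidney, without a call.

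Of 19 measured further enzymes of drug and metabolite conversion, 4 were higher and 3 lower in SBH/y with 2 kidneys, and 1 higher and 6 lower with 1. Over all genes the shares called were 11.0% and 17.7%, and none of the counts of these 4 short lists was tested against them. Fmo5, a flavin-containing monooxygenase gene, was lower by -0.98 ± 0.10 (SE) and -0.995 ± 0.10, the largest difference of these lists, at 7.75 ± 0.06 (SD, n = 5) against 6.77 ± 0.24 (SD, n = 6) with 2 kidneys. Fmo4 was lower by -0.24 ± 0.06 and -0.42 ± 0.05. Sts, the steroid sulfatase gene, whose enzyme removes what sulfotransferases add, was lower by -0.30 ± 0.08 and -0.72 ± 0.07. The epoxide hydrolase gene Ephx1 (0.30 ± 0.06) and the glycine conjugation gene Glyat (0.33 ± 0.06) were higher with 2 kidneys, and Maob, a monoamine oxidase gene, was lower with 1 (-0.51 ± 0.10). After uninephrectomy in SBH/y, Gnmt (-0.44 ± 0.08), Fmo2 (-0.30 ± 0.08) and Fmo4 (-0.24 ± 0.05) fell and Gusb, the lysosomal beta-glucuronidase gene, rose by 0.25 ± 0.06, where 7.16% of all genes were called. With limma, 0 of 19 passed after uninephrectomy in SBN/y.

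**Figure D5:**
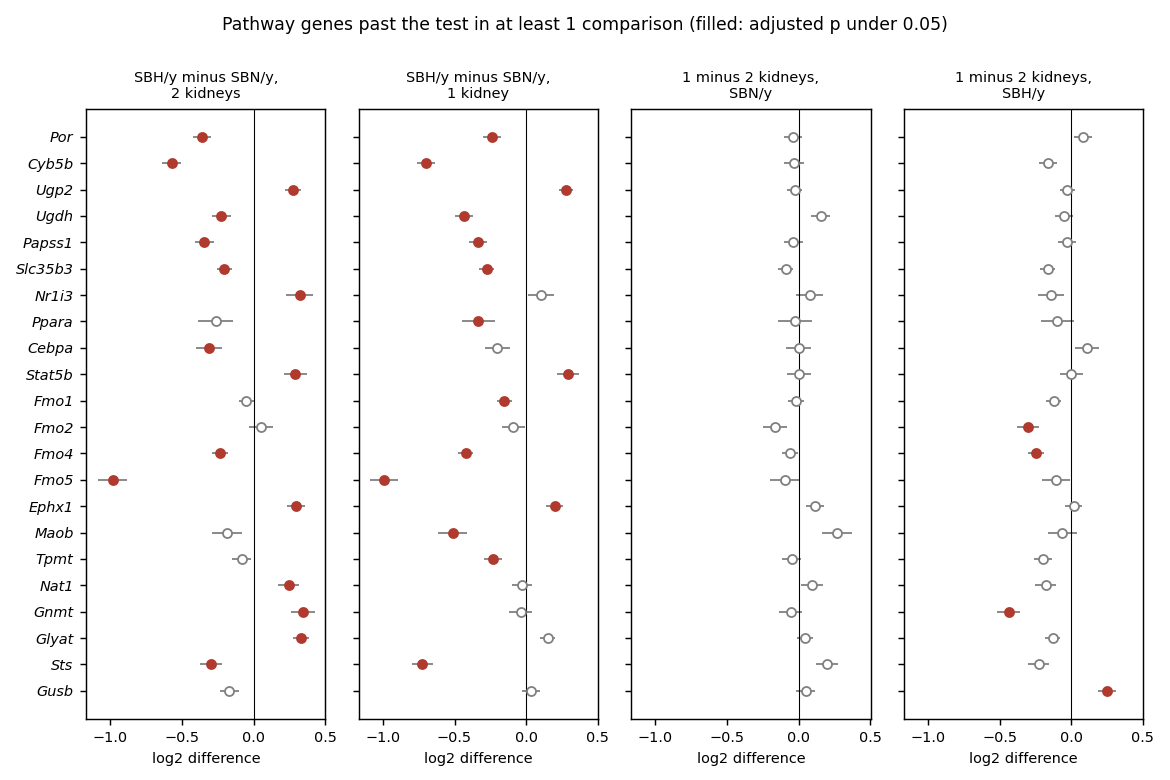
Log2 differences (horizontal axis) with standard errors for the pathway genes past the test in at least 1 comparison (vertical axis), filled where the adjusted p was under 0.05. Fmo5 has the largest strain differences, -0.98 and -0.995, and 4 genes are filled for uninephrectomy in SBH/y.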

How the data were processed

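Kidney RNA of 23 rats was hybridised to Affymetrix arrays. The deposited values are log2 values of 1 probe set per array, made by the authors with RMA and GCOS (versions not given in the sources used here), per the submitters' processing notes. RMA is known to equalise the arrays' distributions, so a change in total mRNA could not be seen. Nothing beyond the sample names states that each array is a separate rat, so the p-values cover the spread among these arrays.

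After removal of 57 controls from 31099 probe sets, 31042 entered a single model of 4 group means in limma 3.58.1 under R 4.3.3; p-values are two-sided and adjusted by Benjamini-Hochberg over all probe sets, with a threshold of 0.05. Symbols came from the array's annotation, updated by gene identifier through RefSeq (70 of 71 members matched, with 0 symbols changed). Not used were 10 probe sets with several symbols, of which at least 1 was a Cyp, Ugt or Sult symbol. Among them was 1 shared by Sult1c2 and RGD1562392, with a mean signal of 9.00. An error is a standard error from the model where SD is not named. Named with values are the members past the threshold in a comparison, the 10 brightest, and up to 4 pathway genes per list and comparison; others named were chosen after their values were seen. The members, lists and alternatives were chosen with earlier results of these data known. The fit was tested on simulated data.

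Replicate numbers are shared by the groups and were not treated as pairs in the main fit. In each comparison 1 or 2 same-numbered pairs had correlated deviations over 0.1 (range -0.17 to 0.26, and -0.42 to 0.44 for other pairs). Between the SBN/y groups, same-numbered pairs ran from 0.007 to 0.147 and other pairs from -0.22 to 0.14. This check cannot decide whether the numbers mark a shared batch. The alternatives were quantile normalization once more, removal of dim probe sets, trended and robust variance, the compared groups alone and 1 probe set per gene. Others were a replicate block, the GAPDH gap as covariate, the next probe set, and arrays left out singly or, for the pair named in the Results, together.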

Additional observations from a re-analysis of the deposited data

Results flagged for a closer look

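In 7 of 72 groups of a named member, 1 array lay farther from its nearest neighbour than Dixon's test allows for the group's range, where chance gives about 1 in 20. The largest such gap was at Cyp2e1 in replicate 4 of SBN/y with 1 kidney, read at 11.50 where the next array was at 10.56. Sult4a1 in replicate 2 of SBH/y with 2 kidneys was read at 4.11 (next 4.60), Ugt8 in replicate 3 of that group at 4.26 (next 4.51), and Cyp4b1 in its replicate 6 at 6.12 (next 6.28). Cyp4f6 in replicate 1 of SBN/y with 2 kidneys was read at 7.78 (next 7.65). Sult1c2a was read at 12.08 in replicate 6 of SBN/y with 1 kidney (next 12.25) and at 12.10 in replicate 5 of SBH/y with 1 kidney (next 12.16).

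The uninephrectomy response of Sult1c3 differed between the strains by -0.59 log2 (adjusted p = 0.0158 from limma), from a signal close to background in 3 of the 4 groups.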

How the results depend on the processing

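Of 23 calls of a member in a comparison, 20 passed under every alternative in which the member was tested, 3 were lost in at least 1 (Cyp2j3 and Cyp4b1 between strains with 1 kidney, and Ugt8, at its second probe set), and 0 changed direction. The filter on dim probe sets left 22 members to test and gave 4 in place of 7 calls between strains with 2 kidneys, 3 in place of 5 for uninephrectomy in SBH/y and 0 in place of 1 for the interaction (limma), since Sult1c3, Sult4a1, Cyp2f4 and Ugt8 were no longer tested. Leaving out replicate 3 of SBH/y with 2 kidneys and replicate 2 of SBH/y with 1 kidney together gave 2 interaction calls in place of 1, with Sult1c2 added. With each array left out in turn, the counts ranged from 7 to 9 and from 9 to 11 between strains with 2 kidneys and with 1, from 0 to 0 and from 5 to 7 for uninephrectomy in SBN/y and in SBH/y, and from 1 to 2 for the interaction. With the replicate number as a block, the counts were 8, 10, 0, 5 and 1 in the same order. The fit of the compared groups alone gives no value for the interaction, which uses all 4 groups. Dim signals limit the sizes: 29 members were at background and 20 more under the median probe set in every group.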
